A study of Mus musculus with 6 samples.

Results

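Ribosomal RNA (rRNA) fragments bound to Argonaute proteins in mouse cortex and hippocampus came largely from a few places. Of these fragments, 43.1% lay in 5 sets of overlapping reads that took in an end of a mature rRNA. Not all reads of these sets lay at the end itself. The rRNA fragments were taken as all sequences whose deposited class was rRNA and which carried no miRNA label, 4276 of the 143934 sequences in the table. In each library they made up between 0.118 and 0.154% of the reads. The tissue came from BL6 mice of 2 months (2M, n = 3) and 18 months (18M, n = 3), with no transgene, knockout or treatment given for either age. The study's methods name male C57BL/6J animals. Argonaute complexes were pulled down from lysates with a peptide of GW182, their natural partner, and the bound short RNAs were sequenced, an assay called Ago-RP-Seq. A mock pull-down or an input library was not analysed here, so bound and carried-over rRNA cannot be told apart.

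In the cell, RNA polymerase I transcribes one long precursor, 45S, which is cut into the 18S, 5.8S and 28S rRNAs of the cytoplasmic ribosome, while 5S is transcribed separately. Mitochondria make their own 12S and 16S rRNAs. Argonaute proteins form the core of the RNA-induced silencing complex (RISC) and normally hold miRNAs, whose seed near the 5′ end pairs with the target mRNA. A fragment of another RNA held in RISC offers a seed of its own. Here the seed is the 6mer at positions 2 to 7, and its viability is the percentage of cells that survived an siRNA with that seed, as the mean of 3 mouse cell lines. A low viability means a toxic seed.

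The sequences were grouped into families, sets of reads that share a run of 15 bases with a sequence of at least 1 RPM (reads per 1000000 reads of a library). There were 30 families, which held 76.1% of the rRNA reads, and the first 10 held 64.7%. The leading read of each of these 10 is shown from the deposited table, 5′ to 3′, with the 6mer seed in capitals, because the site and the seed of each source can be read from it.

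5.8S, 3′ end: aCGCCTGtctgagcgtcgcttt
Mitochondrial 16S, 5′ end: aCTAATCctagccctagccct
28S, interior: cGCGGGTaaacggcgggagt
28S, 5′ end: cGCGACCtcagatcagacgtgg
28S, 3′ part (a): aCCATTCgtagacgacctgcttc
18S, 5′ end: tACCTGGttgatcctgccagt
M27443 and M27441: cCACGGCtgtctctccagccact
X00525 (28S): cGTCCGGccgtgccggtgg
5.8S, 5′ end: gACTCTTagcggtggatca
28S, 3′ part (b): cGCTGCGatctattgaaagtc

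Names of the places rest on the deposited labels and on textbook rRNA sequences, since full references of 18S, 28S and 45S were not used here. The rRNA behind the entries M27443 and M27441 was not assigned. The mitochondrial family was placed by an exact match to the mouse GENCODE annotation of GRCm38. Its leading read lay at chrM:1094-1114 on the plus strand and covered positions 1 to 21 of mt-Rnr2, the gene of the 16S rRNA.

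One library has to be named before the values. Replicate 1 of 18M held 216 RPM of mitochondrial 16S reads against 81.1 to 125 RPM in the other 5 libraries, and 77.4 RPM of reads under X00525 against 18.6 to 45.6 RPM. For several age differences that it moved, the value without it is given.

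The end of 5.8S was the largest source. Reads of this family summed to 254, 305 and 248 RPM in the 2M libraries and to 284, 292 and 318 RPM in the 18M libraries. The ages overlapped, and the 6 values stayed within a narrow range. The family held 21.9% of the rRNA reads in 176 sequences, of which 72.6% by RPM were 21 to 23 nt long. It also holds reads from further upstream. Reads that ran through the end itself averaged 225 RPM at 2M and 238 RPM at 18M, beside 269 and 298 RPM for the family. All reads under the 5.8S entries, wherever they lay on it, made up 24.4% of the rRNA reads, although 5.8S is one of the shortest rRNAs. 5S, of similar size, gave 0.874%.

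The mitochondrial 16S family was the next. It measured 61.5, 107 and 97.9 RPM in the 2M libraries and 181, 81.1 and 72.1 RPM in the 18M libraries. Only replicate 1 of 18M lay above the 2M range. Of its reads, 98.1% began with the same 15 bases, and 85.2% of all 16S reads that matched mt-Rnr2 exactly started at its first base. No other start held more than 1.83%. In the mitochondrial genome this base directly follows a tRNA gene.

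Reads at the starts of 28S and 18S were as uniform. The family at the 5′ end of 28S measured 75.2, 96.9 and 86.8 RPM at 2M and 90.9, 89.1 and 90.2 RPM at 18M, and 96.2% of it began with the same 15 bases. The family at the 5′ end of 18S measured 55.5, 67.1 and 63.7 RPM at 2M and 84.9, 38.0 and 52.3 RPM at 18M, with 98.9% at the same start. In both families most reads were of miRNA length: 84.8% of the 28S reads and 73.3% of the 18S reads had 21 to 23 nt. The ages overlapped in both. The family at the 5′ end of 5.8S was less uniform, with 52.1% of its reads at the leading start and 27.1% of 21 to 23 nt.

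The interior family of 28S and its family marked (a) began less uniformly than the families at the starts described above. The interior family measured 122, 96.7 and 80.0 RPM at 2M and 95.1, 67.9 and 85.2 RPM at 18M. In this interior family the leading start held 33.2% of the reads, and 28.1% were 21 to 23 nt long. The family in the 3′ part of 28S marked (a) measured 85.5, 86.8 and 71.0 RPM at 2M and 84.9, 86.3 and 79.3 RPM at 18M, with 40.8% at the leading start. A uniform start did not set ends apart from other places. In the family at the end of 5.8S the leading start held 27.2% of the reads. Among the families after the first 10, none of them counted at an end, that share ranged from 22.8% (under M19226) to 96.3% (under X82564). In none of the 10 families, nor in the other 5 of at least 10 RPM, did the 3 libraries of one age all lie above or below those of the other, which was the case for 21% of all features in that fit.

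**Figure D1:**
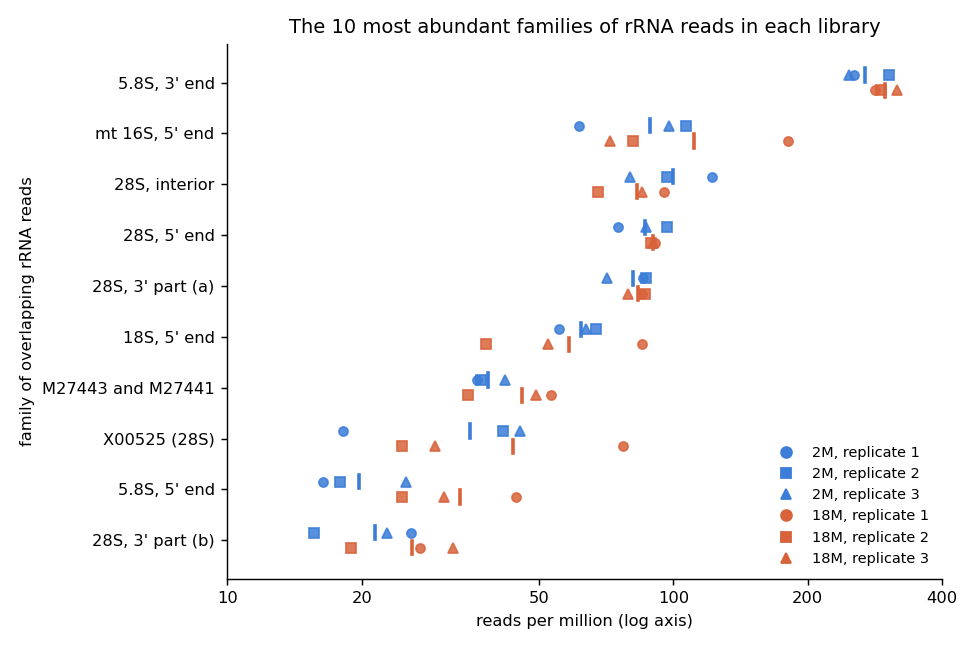
RPM (log axis) of the 10 most abundant families of rRNA reads, with 1 point per library (3 of 2M in blue, 3 of 18M in orange) and a bar at the mean of each age. The end of 5.8S lies above every other family in all 6 libraries, and replicate 1 of 18M stands above the other libraries in the mitochondrial 16S and X00525 families.

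Reads from the end of 5.8S differed at both of their ends, as 5 of the most abundant rRNA sequences show. They are printed with their mean RPM over the 6 libraries given after them, since they differ in their first base and in their number of terminal T. Where the terminal T came from was not tested.

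Shorter start, 3 terminal T: aCGCCTGtctgagcgtcgcttt
Longer start, 2 terminal T: tACGCCTgtctgagcgtcgctt
Longer start, 1 terminal T: tACGCCTgtctgagcgtcgct
Longer start, 3 terminal T: tACGCCTgtctgagcgtcgcttt
Shorter start, 2 terminal T: aCGCCTGtctgagcgtcgctt

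Their levels were 49.5, 43.3, 29.8, 16.9 and 16.02 RPM, in the order shown. A shift of the start by 1 base changed the seed from CGCCUG, with a viability of 61.9%, to ACGCCU, with a viability of 65.1%. The longer start held 34.2% ± 2.16 (SD, n = 3) of the family at 2M and 36.7% ± 4.90 at 18M. The shorter start held 30.2% ± 3.15 at 2M and 24.5% ± 2.26 at 18M, a difference that gave p = 0.2 in a two-sided exact permutation test (adjusted p = 0.375 over 5 starts). Both pairs of ranges overlapped.

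Among the 111 sequences that ran through the end of 5.8S, 27.6 to 36.6% of the reads of a library ended in 3 T and 24.4 to 32.3% in 2 T. Reads with a single terminal T made up 21.96, 24.2 and 40.5% at 2M and 37.8, 27.9 and 28.1% at 18M. Replicate 3 of 2M and replicate 1 of 18M stood apart from the other 4 libraries, and the mean of the ages differed by 2.37 points (exact permutation p = 0.6). Reads with 4 or more terminal T held 2.38 to 3.80%.

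**Figure D2:**
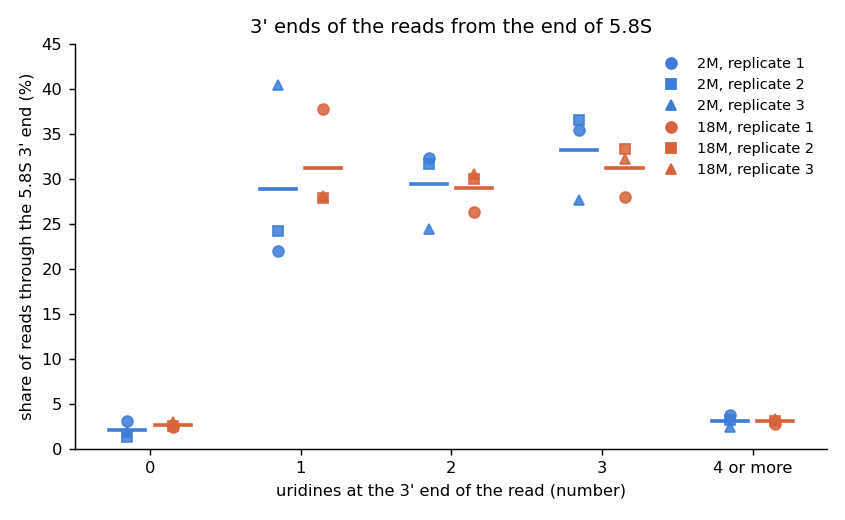
Share of the reads through the 3′ end of 5.8S (%) by the number of terminal uridines, with 1 point per library and a bar at the mean of each age (n = 3). Replicate 3 of 2M and replicate 1 of 18M have the most reads with 1 terminal uridine, 40.5 and 37.8%, and the fewest with 3.

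The table names 19 rRNA entries. The 45S precursor entry X82564 held the most, 487 RPM in the mean of the 6 libraries or 37.6% of the rRNA reads, in 2427 sequences. AH002077 and K01367, both 5.8S, followed with 161 and 155 RPM, M19226 (28S) with 124 RPM and EF108345 (mitochondrial 16S) with 119 RPM. M27358 (18S) had 68.6 RPM, X00686 (18S) 64.3 RPM, X00525 (28S) 39.8 RPM, M27443 30.1 RPM and M27441 16.3 RPM. The remaining 9 entries ranged from 0.401 RPM for X56974 to 10.3 RPM for X71804, a 5S entry. Several entries cover the same rRNA, so the table divides reads of one place between names: the end of 5.8S lay under both AH002077 and K01367. Levels of single names are therefore uncertain as levels of an rRNA.

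For age, the question was whether old brains carry more of these fragments in RISC, or others. The rRNA reads summed to 1175, 1344 and 1213 RPM at 2M and to 1538, 1193 and 1304 RPM at 18M. The ages overlapped. As a share of reads this was 0.124% ± 0.0088 (SD, n = 3) against 0.135% ± 0.0177, with p = 0.6 in the two-sided exact permutation test and an adjusted p of 0.771 over 9 RNA classes. Without replicate 1 of 18M the mean at 18M was 0.125%. With 3 libraries against 3 this test cannot go below 0.1. In tissue, fewer cells of a type and less RNA per cell cannot be told apart.

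By source, 5.8S reads measured 294 ± 28.3 RPM at 2M and 337 ± 16.7 RPM at 18M (exact permutation p = 0.2, adjusted over 6 sources 0.6). Mitochondrial 12S reads were fewer: they measured 6.53, 6.34 and 5.54 RPM at 2M and 9.76, 7.47 and 9.59 RPM at 18M. All 18M libraries lay above all 2M libraries, 1.46-fold in the means, at the smallest p this design allows (exact permutation p = 0.1, adjusted 0.6). Mitochondrial 16S reads, from the same precursor transcript, overlapped between the ages, with 106 ± 22.6 RPM at 2M and 139 ± 67.1 RPM at 18M. Without replicate 1 of 18M the 18M mean was 100.2 RPM, below that of 2M, and the direction turned.

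Name by name, 11 of the 19 entries passed the filter of a mean of 10 RPM and none was called by limma at an adjusted p under 0.05. Across all 324 names tested, 0% were called, and at an unadjusted p under 0.05 the count was 0 of 11 against 9.57% of all names. edgeR and DESeq2 also called none of the 11, against 0.309% and 2.78% of all names. The lowest p belonged to K01367 (5.8S), with 112, 136 and 154 RPM at 2M and 196, 152 and 178 RPM at 18M. Its log2 fold change, on the scale of log2(RPM + 1), was 0.39 with an SE of 0.17, and limma gave an adjusted p of 0.499.

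Sequence by sequence, 16 rRNA reads had a mean of at least 10 RPM, and they held 30.3% of all rRNA reads. limma called none of them, where 0.366% of the 3281 reads of all classes were called. At an unadjusted p under 0.05 the count was also 0 of 16, against 13% of all reads, and in none of the 16 did the ages separate, against 21% of all. edgeR and DESeq2 likewise called none, against 0.274% and 4.6% of all reads. The median log2 fold change of the 16 was 0.05, beside 0.02 over all reads tested. The 3 largest log2 fold changes were 0.37, 0.35 and 0.32 for tACGCCTgtctgagcgtcgcttt, aCTAATCctagccctagccct and tACGCCTgtctgagcgtcgct. The SEs were 0.29, 0.39 and 0.21 and the adjusted p from limma 0.580, 0.712 and 0.507. The mitochondrial one of these was carried by replicate 1 of 18M, without which its log2 fold change was -0.066. The 3 lowest log2 fold changes were -0.29 for aCGCCTGtctgagcgtcgctt, -0.21 for cGCGGGTaaacggcgggagt and -0.18 for aCCATTCgtagacgacctgcttc, with adjusted p from limma of 0.525, 0.630 and 0.626.

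With the filter lowered to a mean of 1 RPM, 159 rRNA reads entered, which held 59.2% of the rRNA reads. limma called 0 of them at an adjusted p under 0.05, against 0.123% of 16220 reads. At an unadjusted p under 0.05 it passed 16, against 10.8% of all reads. Of these 13 were higher at 18M, or 8.18% of the 159 against 6.54% of all reads in that direction. The ages separated in 28 of the 159, 21 with 18M higher and 7 with 18M lower, or 17.6% against 17.1% of all reads. In the 2 directions the shares of all reads were 9.12% and 7.94%, and those of the rRNA reads 13.2% and 4.40%.

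The reads with the lowest p in this wider set came from the 5′ end of 5.8S. They are shown because they share a 3′ end and differ only by 1 base at the start, which changes the seed.

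5.8S, from the first base: cGACTCTtagcggtggatca
5.8S, from the second base: gACTCTTagcggtggatca

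The longer one measured 0.762, 0.877 and 1.43 RPM at 2M and 9.75, 4.31 and 5.71 RPM at 18M, from 16, 22 and 30 reads and 188, 101 and 125 reads. The shorter one measured 1.76, 1.59 and 2.29 RPM at 2M and 12.9, 5.54 and 7.26 RPM at 18M. All 18M libraries lay above all 2M libraries in both, and replicate 1 of 18M was the highest. For the longer read limma gave a log2 fold change of 1.86 with an SE of 0.27 and an adjusted p of 0.0520, just short of the threshold, and edgeR an adjusted p of 0.0609. DESeq2 gave 2.94e-07, and limma passed it at 0.0427 with a pseudocount of 0.1 and at 0.0388 with median-of-ratios scaling. Without replicate 1 of 18M the log2 fold change was 1.57 (limma adjusted p = 0.190, DESeq2 0.000168). For the shorter read the log2 fold change was 1.67 with an SE of 0.28, and the adjusted p was 0.0810 with limma, 0.0801 with edgeR and 1.03e-05 with DESeq2 (0.000567 without that library).

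Reads from the same start with other 3′ ends overlapped between the ages. The 2 sequences with this 3′ end summed to 2.52, 2.47 and 3.72 RPM at 2M and to 22.7, 9.85 and 12.97 RPM at 18M, 5.22-fold in the means (exact permutation p = 0.1) and 3.93-fold without replicate 1 of 18M. The 31 sequences that began at the same place and ended elsewhere summed to 13.5 ± 3.51 RPM at 2M and 12.99 ± 1.57 RPM at 18M, a ratio of 0.963 (exact permutation p = 0.9). This split by 3′ end was chosen after the values were seen, and the difference between the 2 sets was not tested. The whole family at the 5′ end of 5.8S had a log2 fold change of 0.70 with an SE of 0.26 (limma adjusted p = 0.314). limma called none of the 15 families of at least 10 RPM, against 0.366% of all features in that fit, and this was the one with an unadjusted p under 0.05, against 13.1% of all. Without replicate 1 of 18M its log2 fold change was 0.48.

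**Figure D3:**
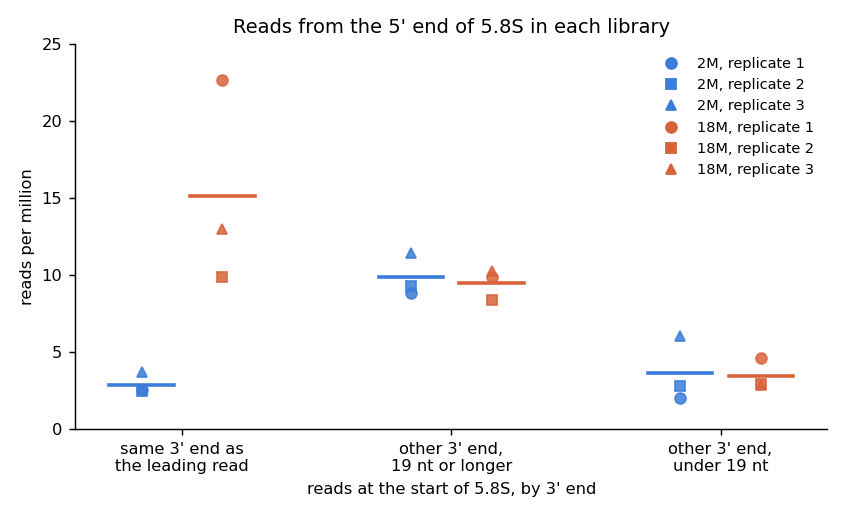
RPM of the reads that start at the 5′ end of 5.8S, split by their 3′ end and length, with 1 point per library and a bar at the mean of each age (n = 3). Reads with the 3′ end of the leading read lie at 2.47 to 3.72 RPM in the 2M libraries and 9.85 to 22.7 RPM in the 18M libraries, while reads with other 3′ ends overlap between the ages.

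DESeq2 called 4 of the 159 reads in the wider set, against 1.43% of all reads. Beside the pair from 5.8S these were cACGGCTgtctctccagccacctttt (M27443; DESeq2 adjusted p = 0.00626, limma 0.194) and gTCCGGCcgtgccggtggt (X00525; DESeq2 0.0394, limma 0.244). The first had 0.475 ± 0.310 RPM (SD, n = 3) in the young and 2.49 ± 1.24 RPM in the old libraries. The second had 0.930 ± 0.354 RPM and 2.94 ± 1.35 RPM. Both lay under 1 RPM in the mean of 2M and passed the filter only through their 18M values, so these calls are not read as a result. Without replicate 1 of 18M DESeq2 called neither (adjusted p of 0.187 and 0.365), and the 18M means were 1.82 and 2.17 RPM. Without replicate 3 of 2M it also called the pair from 5.8S alone. A 5.8S read from further upstream, tCCTCCCggggctacgcctgtct, was more abundant: it measured 6.14, 7.65 and 7.77 RPM at 2M and 11.9, 12.1 and 13.2 RPM at 18M. Its 6 values separated by age with little spread within each, and its log2 fold change was 0.72 with an SE of 0.17, but no tool passed it (adjusted p of 0.210 with limma, 0.246 with edgeR and 0.0879 with DESeq2).

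In length the rRNA reads peaked where miRNAs do, at 22 nt, which held 22.8% of them. They spread more widely. Reads of 21 to 23 nt made up 57.5% of the rRNA reads in the mean of the 6 libraries, 84.5% of reads with a miRNA label and 53.5% of tRNA reads. The difference from miRNA reads was -27.0 percentage points, negative in 6 of 6 libraries, and that from tRNA reads 4.003 points, positive in 6 of 6 (12.4 points with only rRNA sequences of at least 1 RPM). An exact sign-flip test over the 6 libraries gave p = 0.03125 for each, the smallest it can give, and an adjusted p of 0.0375 over 12 comparisons. Over all reads the mean lengths differed little: rRNA reads measured 21.7 nt, 0.02 nt more than miRNA reads (exact sign-flip p = 0.4375) and -0.02 nt from tRNA reads (exact sign-flip p = 0.71875). With only rRNA sequences of at least 1 RPM the mean was 21.9 nt, 0.17 nt above that of miRNA reads in 6 of 6 libraries (exact sign-flip p = 0.03125) and 0.13 nt above that of tRNA reads in 5 of 6 (p = 0.09375).

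The first base differed most. U, the base that Argonaute prefers at this place, opened 27.1% of the rRNA reads, 73.4% of the miRNA reads and 46.9% of the tRNA reads. C was the commonest first base of the rRNA reads, with 32.6%, against 4.45% of miRNA reads. The U share was lower in rRNA than in miRNA reads by -46.3 points and than in tRNA reads by -19.8 points, in 6 of 6 libraries each (exact sign-flip adjusted p = 0.0375).

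The mean seed viability of rRNA reads was lower, and the median was lower only than that of tRNA reads. The mean was 54.7% ± 0.527 (SD over 6 libraries), against 57.9% ± 0.263 for miRNA reads and 62.4% ± 0.823 for tRNA reads. The median over reads was 58.1% for rRNA, 57.3% for miRNA and 68.5% for tRNA reads in the mean of the 6 libraries, so against miRNA reads it lay the other way. Seeds under 40% viability were in 21.5% of the rRNA reads, 13.1% of the miRNA reads and 13.5% of the tRNA reads. G made up 27.3% of the seed bases of rRNA reads, 24.7% of those of miRNA reads and 25.2% of those of tRNA reads. All 6 differences had the same sign in 6 of 6 libraries (exact sign-flip adjusted p = 0.0375 each). Part of this lay in rare sequences. With only rRNA sequences of at least 1 RPM, a limit chosen after the values were seen, the share under 40% viability was 14.7%. It then exceeded that of miRNA reads by 1.55 points in 6 of 6 libraries (exact sign-flip p = 0.03125) and that of tRNA reads by 1.18 points in 5 of 6 (exact sign-flip p = 0.09375). The mean viability was 56.7%, a difference of -1.20 points from miRNA reads and -5.65 points from tRNA reads. Seed G was 24.3% and no longer higher than in either class. In RPM, toxic seeds of rRNA origin were few: they summed to 278 RPM, among 132529 RPM of reads of any class with such a seed. The ages overlapped in this sum, with 270, 285 and 272 RPM at 2M and 324, 236 and 283 RPM at 18M. Replicate 1 of 18M was the highest library. No direction is therefore read from the means, 276 ± 8.21 RPM (SD, n = 3) at 2M and 281 ± 43.8 RPM at 18M.

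**Figure D4:**
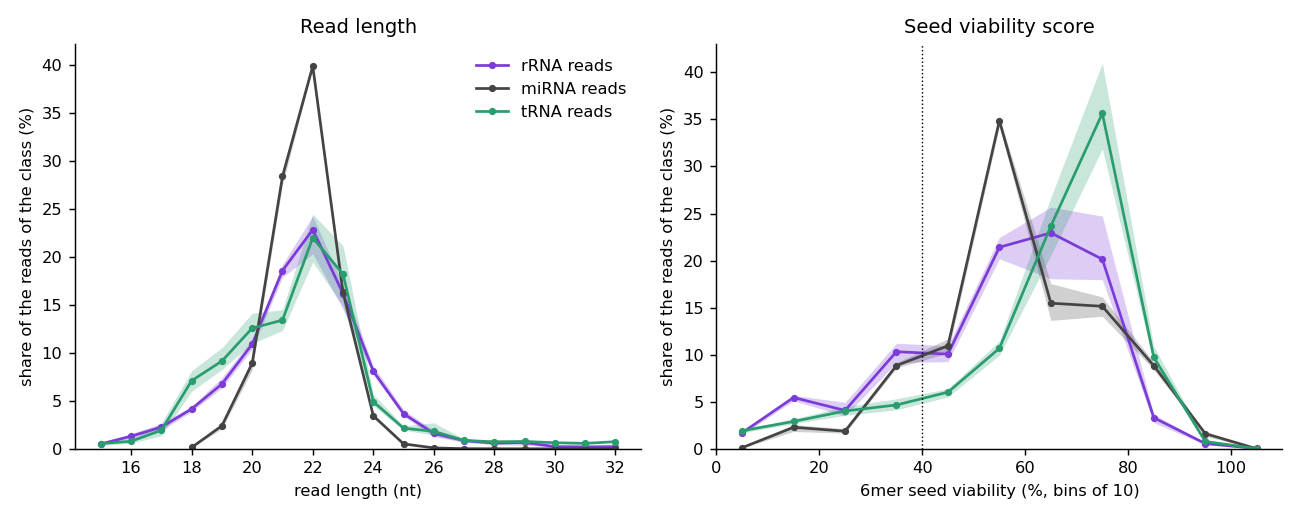
Left, share of the reads (%) by read length in nt. Right, share of the reads (%) by 6mer seed viability in bins of 10 percentage points, with 40% as a dotted line. Lines show the mean of the 6 libraries for rRNA, miRNA and tRNA reads and bands the lowest and highest library: rRNA reads are broader in length than miRNA reads and have more reads left of the dotted line, 21.5% against 13.1%.

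The families differed in this. In the interior family of 28S 57.1% of the reads had a seed under 40% viability, and in the family marked (b) 59.98%, in that of M27443 and M27441 49.1% and in that of X00525 32.9%. At the 5′ end of 5.8S it was 31.9%. By contrast the share was 0% at the 5′ end of 18S and in the 3′ part of 28S marked (a), 0.309% at the 5′ end of 28S, 1.16% in mitochondrial 16S and 6.29% at the end of 5.8S. Among the toxic seeds the most abundant was GCGGGU, with a viability of 30.9% and 32.6 RPM of rRNA reads. CGCGGG followed with a viability of 24.5% and 20.4 RPM. Next came CACGGC from the entries M27443 and M27441, with a viability of 33.7% and 19.3 RPM. The first pair come from the same interior 28S fragment with starts 1 base apart, as these reads show.

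28S, interior, leading start: cGCGGGTaaacggcgggagt
28S, interior, 1 base upstream: gCGCGGGtaaacggcgggagt

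The rRNA reads held 1133 distinct seeds. Of these 20 had at least 10 RPM of rRNA reads, and the rRNA share of all reads with the seed ranged over them from 24.4% for AAACCA to 99.9% for CUAAUC. It was over 50% in 16, among them CUCCAC with 53.1%. For ACGCCU (5.8S) the share was 99.3% and for GCGACC (28S) 91.4%. Of the 20 seeds, 7 also occur in a mouse miRNA of RefSeq, such as CUAAUC (mitochondrial 16S) in mmu-miR-6420 and GCGGGU in mmu-miR-6409. Of the 12 most abundant toxic seeds 4 were higher and 2 lower at 18M without overlap, and 6 overlapped. The share over all seeds was not computed, so no age result for toxic seeds can be read from this count. The higher ones were GACUCU (5.8S) and CGCGGC (28S), with CCGGGC from the 45S entry and GCUCCC from the same entry. The lower ones were GCCUGU, with 6.69 ± 0.120 RPM at 2M and 4.95 ± 0.185 RPM at 18M, and CCUGUC, with 5.90 ± 0.642 and 4.88 ± 0.354 RPM. GACUCU, at the first base of 5.8S, is described because the longer of the 5.8S reads above holds it, and has a viability of 11.3%. Its rRNA reads measured 3.48, 5.90 and 8.20 RPM at 2M and 14.3, 8.40 and 10.8 RPM at 18M, 1.91-fold in the means and 1.64-fold without replicate 1 of 18M.

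Between the ages the make-up of the rRNA reads moved little. Mean length was 21.62, 21.68 and 21.74 nt at 2M and 21.80, 21.81 and 21.77 nt at 18M, so that the ages did not overlap. The difference was 0.109 nt. The G content of the seeds was 28.8, 27.6 and 27.4% at 2M and 26.6, 26.1 and 27.0% at 18M, lower at 18M without overlap, by -1.38 points. Both gave p = 0.1 in the exact permutation test, the smallest possible, and an adjusted p of 0.25 over 5 measures. Mean seed viability was 54.3% ± 0.245 at 2M and 55.0% ± 0.472 at 18M, and reads under 40% viability made up 22.2% ± 0.899 and 20.9% ± 0.949. Both overlapped (exact permutation p = 0.2, adjusted 0.25). The share of 21 to 23 nt was 58.0% ± 1.36 and 57.1% ± 2.77 (exact permutation p = 0.7).

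**Figure D5:**
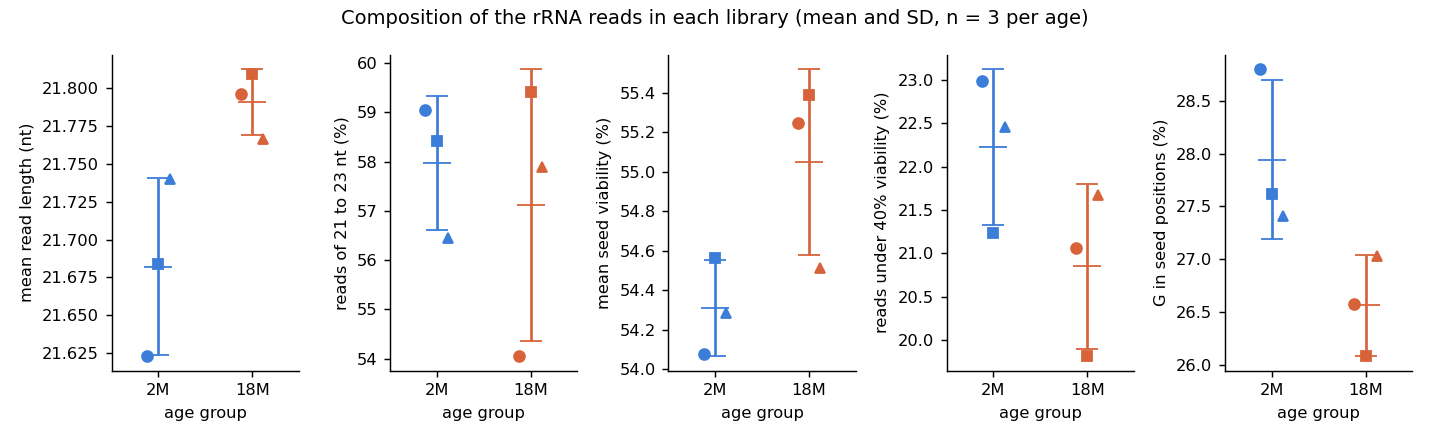
Mean length, share of 21 to 23 nt, mean seed viability, share of reads under 40% viability and seed G content of the rRNA reads, each on its own axis that does not start at 0, with 1 point per library and the mean ± SD of each age (n = 3). Mean length is higher and seed G content lower in all 18M libraries, and the other 3 measures overlap.

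Depth was 19272046 to 25080484 reads per library, as recovered from the steps of the values, so 3 reads correspond to 0.120 to 0.156 RPM. Each library held 3034 to 3310 of the rRNA sequences, and 1305 were in all 6. The 4 miRNAs listed as marks of neurons summed to 196252 to 255544 RPM, those of oligodendrocytes to 4204 to 7050 RPM, and both lists overlapped between the ages. The list of erythrocytes, of which 3 of 4 miRNAs were found, was lowest in replicate 2 of 18M, with 1120 RPM against 2322 to 3509 RPM elsewhere. The lists of microglia and leukocytes (766 to 987 RPM), vessels (10104 to 17001 RPM) and muscle (195 to 355 RPM) overlapped too. Their part in the results was not tested.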

How the data were processed

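Ago-RP-Seq libraries of cortex and hippocampus (3 of 2M, 3 of 18M) were analysed. The deposited values are RPM: the authors demultiplexed and trimmed reads (Trim Galore, per the submitters' processing notes), compiled them into one table, removed rare reads, assigned RNA classes by BLAST (SPOROS) and scaled each library to 1000000 reads. Per the labels RNA of 19 to 35 nt was cut from a gel, though 8.22% of the rRNA reads were shorter, from 15 nt on. Ligation can favour some ends. Versions and the genome build are not given in the sources used here. The deposited seed viability and the row total are scores made by the authors, and the total was not used in a test. The labels do not say how many animals each library holds, so p-values measure the spread between these libraries.

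All values of the RPM columns were whole multiples of 1 step per library (100% within 0.1 step), which gave the read counts. A chi-square test of read counts gave at least 112 per degree of freedom for every pair of libraries, so none was a copy. Members and lists were chosen with earlier results of these data known. Names, reads and families of at least 10 RPM were compared in a fit over the whole table with limma 3.58.1 (trend) on log2(RPM + 1), and p-values adjusted by Benjamini-Hochberg (called under 0.05). edgeR 4.0.16 (quasi-likelihood) and DESeq2 1.42.0 on the recovered reads were alternatives. Families were built by script from shared runs of bases. Totals and shares were compared by two-sided exact permutation tests between ages and exact sign-flip tests within libraries. In simulated data for reads, limma recovered 177 of 177 tested 4-fold changes with 9 false calls among 3089. The simulated spread was fixed, not estimated from these data, and the changed reads were drawn from those of at least 10 RPM. This recovery therefore does not measure the power of the real fits. The reads described in full were the 12 most abundant, the 3 largest and smallest fold changes and all calls, with the 10 most abundant names, and reads under 10 RPM were added after their values were seen. Exact GENCODE matches were found for 696 of 4276 sequences. Another 6 sequences of class rRNA carry a miRNA label and were left out. Intervals were not computed for shares, and sampling of reads covers counting error only.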

Additional observations from a re-analysis of the deposited data

How the results depend on the processing

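Counts of called rRNA names, reads and families were 0 under each alternative run at 10 RPM (other pseudocounts, scaling, no trend, edgeR, DESeq2, each library left out), and no rRNA read reached 100 RPM. At 1 RPM, chosen together with these settings after seeing the data, limma called 1 of 159 reads with a pseudocount of 0.1. With median-of-ratios scaling it also called 1. DESeq2 called 4, or 2.52% against 1.43% of all reads, and 2 to 4 with a library left out. Shares over all reads are not given here for the other runs, so their counts are not read as a result. Why the settings differed was not tested.

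The difference in the 21 to 23 nt share between ages ranged from -2.01 to 0.674 points with a library left out and turned positive without replicate 1 of 18M. The log2 fold change of the leading mitochondrial 16S read ranged from -0.066, without that library, to 0.593. Reads under X00525 also turned without replicate 1 of 18M, from 44.0 to 27.3 RPM at 18M against 35.5 RPM at 2M. Seed UCCGGC turned too, from 9.52 to 5.36 RPM at 18M against 8.39 RPM at 2M. The rRNA share, mean length and seed G kept their direction: 0.000401 to 0.0177 points for the rRNA share, 0.0791 to 0.138 nt for length and -1.65 to -0.950 points for seed G.

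With 5 libraries the sign-flip test cannot go below 0.0625, so it was void, but rRNA minus miRNA stayed at -27.3 to -26.3 points (21 to 23 nt), -3.41 to -3.12 (viability), 8.16 to 8.59 (under 40%), 2.27 to 2.87 (G) and -46.7 to -45.7 (first U). rRNA minus tRNA stayed at 3.01 to 4.70, -7.84 to -7.45, 7.83 to 8.25, 1.66 to 2.15 and -20.8 to -19.1 points. The length difference from tRNA reads, -0.0505 to 0.0149 nt, turned positive without replicate 1 of 2M (0.0149) or replicate 3 of 18M (0.0009). With only rRNA sequences of at least 1 RPM, rRNA minus miRNA became 0.174 nt for length, now past the threshold, and -0.397 points for seed G, and rRNA minus tRNA 0.131 nt, -0.903 points and, for the share under 40%, 1.18 points, no longer past it. With this limit in both classes they were 0.182 nt and -0.406 points, and 0.311 nt, now past the threshold, and -0.812 points.

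Replicate numbers did not pair the libraries (correlations of -0.121, -0.0942 and -0.136 over all reads). With the replicate block limma called 0 names, reads and families, and the exact sign-flip p of the 3 pairs was 0.25 for length and seed G and 0.75 for the rRNA share.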
